A study of Mus musculus with 12 samples.

Results

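The 10 genes described here belong to the YAP and TEAD pathway or encode matricellular proteins that it is known to control: Yap1, Wwtr1, Lats2, Amotl2, Ctgf, Cyr61, Ankrd1, Axl, Thbs1 and Tnc. They are 10 of the 24421 genes in the deposited tables. The set was drawn up because Ctgf and Thbs1 were high in a tumor and because Ctgf was higher with PEITC at 24 weeks, so these differences, and all others between the same groups, are given as descriptions without a test. For Ctgf and Thbs1 the same holds for every comparison that uses the TRAMP libraries of control diet at 24 weeks. All 10 genes reached the mean of 0.5 FPKM over the 12 libraries that was asked of a gene before testing, as did 13375 genes in all. FPKM is the number of sequenced fragments scaled by transcript length and library size.

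RNA sequencing was done on total RNA from prostates of TRAMP mice, strain C57BL/6-Tg(TRAMP)8247Ng/J, and of wild type C57BL/6 mice. The TRAMP transgene places the SV40 T antigens under the probasin promoter, which is active in prostate epithelium. The animals ate AIN93M diet, unchanged as control or containing PEITC at 0.05% (w/w). PEITC is phenethyl isothiocyanate, which forms when watercress and related plants are chewed. TRAMP prostates gave 2 libraries for each diet at 16 and at 24 weeks of age, and wild type prostates, on control diet only, are present as 2 libraries of 24 weeks and 1 of 16 weeks. These 11 libraries came from ventral and dorsolateral lobes. The last library came from a prostate tumor of the TRAMP strain at 24 weeks on control diet, whose lobe of origin the labels call unknown. The labels do not say that the libraries of a group came from separate animals, so the p-values measure only the spread between these samples, which may be technical.

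YAP (gene Yap1) and its paralog TAZ (gene Wwtr1) are transcriptional coactivators without a DNA-binding domain of their own, and they act mainly through the TEAD transcription factors. The Hippo kinases, LATS among them, phosphorylate YAP and TAZ and keep them in the cytoplasm, so their activity is set largely by localization and stability of the proteins rather than by their mRNA. The secreted CCN proteins CTGF and CYR61 are the targets most often measured as a readout, while Lats2 and Amotl2 are targets that feed back to restrain YAP. Thrombospondin 1 and tenascin C are matricellular proteins, which signal from the extracellular matrix and are prominent in wounds and in tumor stroma.

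The letters that TEAD factors read were looked for in the 250 bases before the start of these genes, and 8 of the 10 were found in the promoter table (RefSeq, assembly GRCm38.p6), all but Ctgf and Thbs1. The stretches are shown because they include the best known direct targets, Cyr61 and Ankrd1, beside the gene of the coactivator itself. Each is 30 bases long, printed 5′ to 3′ on the gene's strand, with GGAATG or its reverse complement CATTCC in capitals.

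Cyr61 (chr3:145650071-145650100, minus strand, motif 103 bases upstream of the start): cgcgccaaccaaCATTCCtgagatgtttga
Ankrd1 (chr19:36120037-36120066, minus strand, motif 210 bases upstream): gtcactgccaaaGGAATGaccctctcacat
Ankrd1 (chr19:36119950-36119979, minus strand, motif 123 bases upstream): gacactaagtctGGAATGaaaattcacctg
Amotl2 (chr9:102717727-102717756, plus strand, motif 65 bases upstream): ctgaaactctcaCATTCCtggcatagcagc
Wwtr1 (chr3:57576029-57576058, minus strand, motif 136 bases upstream): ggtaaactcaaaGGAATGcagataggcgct
Yap1 (chr9:8004720-8004749, minus strand, motif 141 bases upstream): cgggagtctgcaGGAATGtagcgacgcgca
Axl (chr7:25788949-25788978, minus strand, motif 233 bases upstream): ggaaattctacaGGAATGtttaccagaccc

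The motif stood before a listed start of 6 of the 8 genes and of 14.4% of all 27025 genes in the table. Each gene was counted once whatever its number of starts. By window, 12.6% of all 32851 windows of the same length held it. Ankrd1 held it at both places shown above. The Axl start lies outside the gene as GENCODE M21 gives it, and the bases after that start were not found in a GENCODE M21 transcript of Axl. Lats2 and Tnc had none in this window. The starts of Lats2, Ankrd1 and Amotl2 in the promoter table lie inside the genes as GENCODE M21 gives them. The bases before their outermost starts were therefore not searched, and the motifs shown for Ankrd1 and Amotl2 lie within the annotated genes. The AP-1 motif TGACTCA or TGAGTCA, read by the FOS and JUN factors that often bind beside TEAD, stood before 5.16% of all genes in the table and before 0 of the 8 members. A match of letters is a description and does not show that a factor was bound in these tissues.

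The libraries differed in ways that touch several of the results. Depth relative to the deepest library ranged from 0.635 to 1, and was lower in the wild type libraries and the tumor than in most TRAMP prostates. The 16-week wild type library stood apart: its Svs2, a seminal vesicle secretory gene, was at 3095 FPKM, and its 6 seminal vesicle markers summed to 7813 FPKM, against at most 2.81 in the 8 TRAMP prostates. The 8 luminal epithelial markers, Krt8 and Cdh1 among them, summed to 2867 to 3536 FPKM in the 11 prostates and to 4400 in the tumor. None of them was at 0 in any library.

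**Figure D1:**
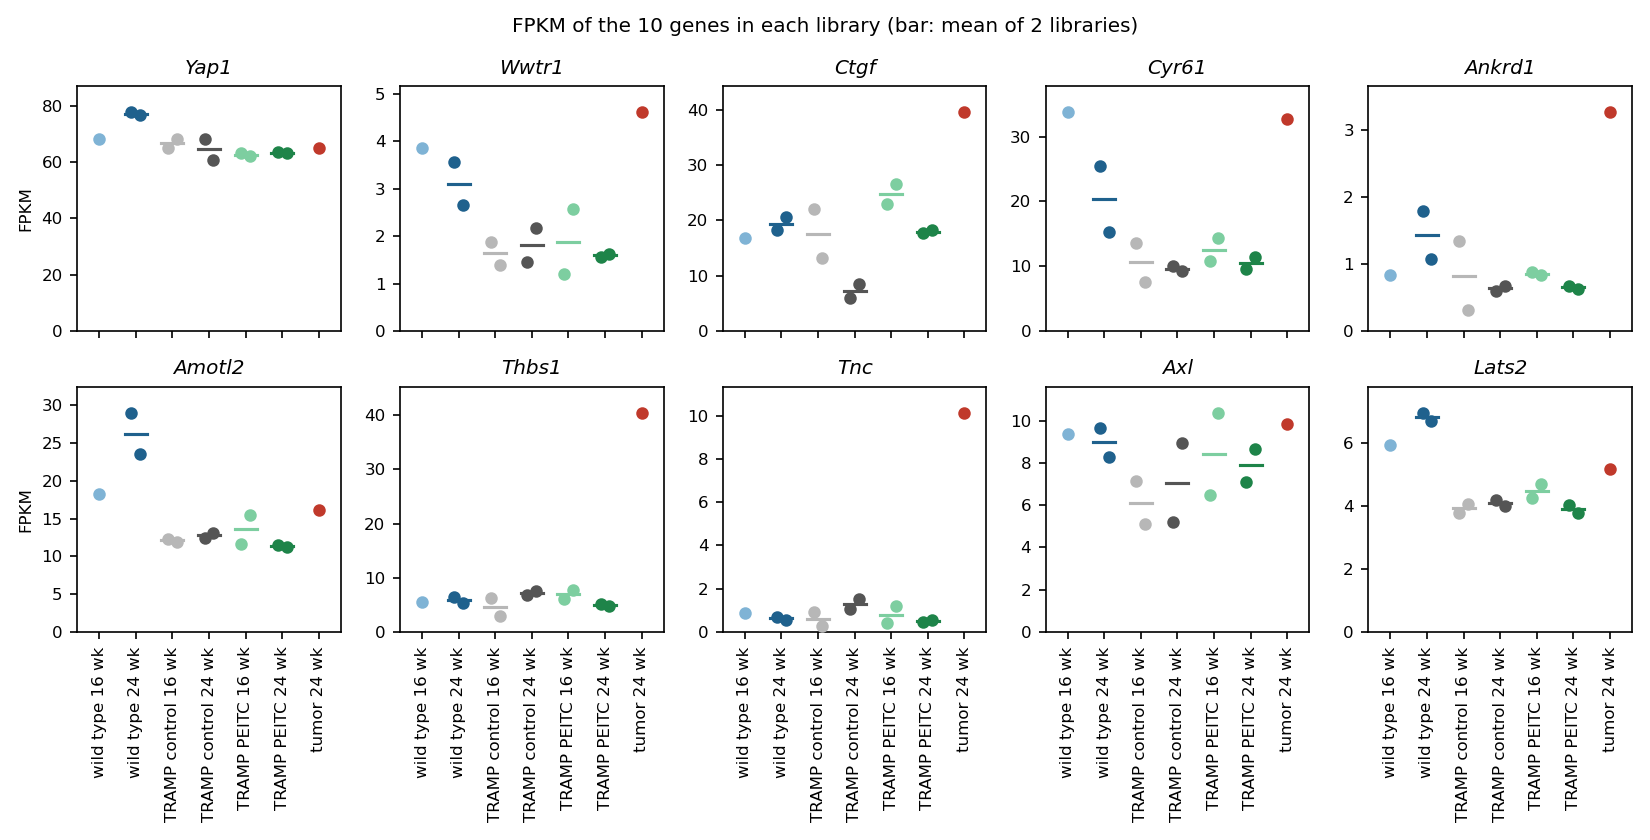
FPKM of each of the 10 genes (vertical axes, from 0) in the 12 libraries by group; points are libraries and bars are means of 2 libraries. Yap1 varied little, Amotl2 and Lats2 were higher in the 3 wild type libraries than in the 8 TRAMP prostates, Ctgf was lowest in the 24-week TRAMP control libraries, and Thbs1 and Tnc were highest in the tumor.

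The comparison of TRAMP with wild type prostate on control diet shows how the transgene, with the disease it drives, goes along with the level of these genes. At 24 weeks 4 of the 8 members that could be tested fell: Amotl2, Lats2, Cyr61 and Yap1. None rose. Among all genes tested, 22.0% fell and 23.0% rose in this comparison, 45.0% in all. The median log2 fold change over all 10 members was -0.55, against -0.00 over all genes tested. At 16 weeks 3 of the 10 members fell, Cyr61, Amotl2 and Lats2, where 15.4% of all genes fell and 18.1% rose (33.6% in all), and the median over the members was -0.39 against 0.02. Here the wild type side is 1 library, and the spread of the other groups stands in for its own. In bulk tissue fewer cells of a type and less RNA per cell cannot be told apart.

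Yap1, the coactivator, was the most abundant of the 10 by FPKM in every library. It stood at 77.8 and 76.9 FPKM in the 24-week wild type libraries, at 68.3 and 60.9 in the TRAMP libraries of the same age and diet, and at 68.1 in the 16-week wild type library. The 24-week wild type pair was above all others, and the 16-week wild type library lay within the range of the TRAMP prostates, 60.9 to 68.3. The fall at 24 weeks was small, at -0.26 on the log2 scale (SE 0.062, adjusted p = 0.011 by limma). It did not pass when TRAMP replicate 2 was left out (-0.18, adjusted p = 0.053) or when the libraries were rescaled, by quantiles (-0.15, adjusted p = 0.092) or without the 50 most abundant genes (-0.15, adjusted p = 0.098). Nor did it pass in a fit of the compared groups alone (adjusted p = 0.068). Adjusted p over its 12 alternatives ranged from 0.0046 to 0.098. At 16 weeks the difference was -0.03 (SE 0.076, adjusted p = 0.78), and its sign turned under both rescalings (0.03 and 0.09). Set against the 24-week wild type libraries instead, the 16-week TRAMP libraries were lower (-0.21, adjusted p = 0.027). Adjusted p over the 11 alternatives ranged from 0.027 to 0.99.

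Wwtr1, the gene of the coactivator TAZ, was far less abundant. Wild type libraries had 3.56 and 2.65 FPKM at 24 weeks and 3.85 at 16 weeks. TRAMP control libraries had 1.46 and 2.16 at 24 weeks and 1.88 and 1.40 at 16 weeks. All 8 TRAMP prostates, 1.21 to 2.56 FPKM, lay below all 3 wild type libraries, but neither difference passed the test (log2 fold change -0.55, SE 0.24, adjusted p = 0.098 at 24 weeks, and -0.88, SE 0.29, adjusted p = 0.050 at 16 weeks). Quantile normalization brought both past the threshold (adjusted p = 0.014 and 0.024). Over the alternatives adjusted p ranged from 0.014 to 0.35 at 24 weeks and from 0.024 to 0.15 at 16 weeks. The ratio of Yap1 to Wwtr1 in FPKM lay between 17.7 and 29.0 in wild type and between 24.3 and 52.5 in TRAMP prostates, and was 14.1 in the tumor.

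Lats2, the kinase that phosphorylates YAP and is itself a YAP target, had 6.95 and 6.69 FPKM in the wild type libraries at 24 weeks and 4.21 and 3.99 in TRAMP. At 16 weeks it had 5.94 in wild type, and 3.79 and 4.05 in TRAMP. All wild type values lay above the highest TRAMP prostate, 4.70. Lats2 fell at 24 weeks by 0.62 on the log2 scale (SE 0.086, adjusted p = 0.00091) and at 16 weeks by 0.50 (SE 0.11, adjusted p = 0.0094). The fall at 24 weeks passed under all 12 alternatives. At 16 weeks it did not pass in a fit of the compared groups alone (adjusted p = 0.12), the highest of its 11 alternatives, which began at 0.00064.

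Amotl2, an angiomotin family protein that binds YAP and holds it outside the nucleus, moved like Lats2. Its 24-week values were 28.9 and 23.5 FPKM in wild type and 12.4 and 13.1 in TRAMP, and at 16 weeks 18.3 in wild type and 12.3 and 11.9 in TRAMP. It fell by 0.98 (SE 0.13, adjusted p = 0.00082) at 24 weeks, under all 12 alternatives. At 16 weeks it fell by 0.56 (SE 0.16, adjusted p = 0.033). That call was lost without either TRAMP library (-0.58, adjusted p = 0.073, without replicate 0 and -0.54, adjusted p = 0.091, without replicate 1). It was also lost with no filter on low values (adjusted p = 0.059), without the 50 most abundant genes in the scaling (adjusted p = 0.063) and in a fit of the compared groups alone (adjusted p = 0.051), and adjusted p ranged from 0.00060 to 0.091 over 11 alternatives. Across the 12 libraries Amotl2 and Lats2 had a Pearson correlation of 0.97 on the log2 scale, and 0.97 over the 11 libraries without the tumor. The points share the wild type and TRAMP groups, so this is a description of the same difference.

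Cyr61, a CCN matricellular protein and early YAP target, had the largest fall at 16 weeks. The 16-week wild type library stood at 33.8 FPKM and the TRAMP libraries at 13.6 and 7.60. The fall of 1.63 on the log2 scale (SE 0.36, adjusted p = 0.011) passed under all 11 alternatives, which ran from -2.02 without TRAMP replicate 0 to -0.89 (adjusted p = 0.040) with the 24-week wild type libraries as control. The value of 1.63 rests on the single wild type library that held seminal vesicle RNA. At 24 weeks the wild type libraries had 25.5 and 15.3 FPKM and the TRAMP libraries 10.1 and 9.19. The groups do not overlap at either age, but the wild type pair was far apart. The fall at 24 weeks was 0.97 (SE 0.29, adjusted p = 0.028), and it did not pass with no filter on low values (adjusted p = 0.065), without TRAMP replicate 0 (-1.03, adjusted p = 0.070), without TRAMP replicate 2 (-0.91, adjusted p = 0.10) or without wild type replicate 0 (-0.62, adjusted p = 0.16). Its adjusted p ranged from 0.019 to 0.16 over 12 alternatives.

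Ankrd1, a nuclear ankyrin repeat protein and another direct YAP target, was low, under 2 FPKM in each of the 11 prostates. It had 1.79 and 1.07 FPKM in wild type and 0.602 and 0.672 in TRAMP at 24 weeks (-0.56, SE 0.26, adjusted p = 0.11). Quantile normalization brought this past the threshold (-0.77, adjusted p = 0.036), and over 11 alternatives the value ran from -1.02 to -0.19 and adjusted p from 0.036 to 0.41. At 16 weeks the wild type library had 0.837, between the TRAMP values of 1.34 and 0.317 (-0.07, SE 0.31, adjusted p = 0.89). Axl, a receptor tyrosine kinase of the TAM family and a YAP target, varied as much within groups as between them. It had 9.66 and 8.30 FPKM in wild type and 5.19 and 8.96 in TRAMP at 24 weeks (-0.34, SE 0.27, adjusted p = 0.34), and 9.37 in wild type against 7.16 and 5.09 in TRAMP at 16 weeks (-0.56, SE 0.34, adjusted p = 0.24).

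Ctgf, the gene of the CCN protein CTGF (ENSMUSG00000019997.11, GRCm38 chromosome 10, 24595442 to 24598683, plus strand), had another pattern over the groups than its relative Cyr61. At 16 weeks the wild type library had 16.8 FPKM, between the TRAMP values of 22.0 and 13.2 (log2 fold change 0.02, SE 0.28, adjusted p = 0.97), and the sign of this difference turned under several alternatives. At 24 weeks wild type stood at 18.2 and 20.6 FPKM and TRAMP control at 5.88 and 8.50, which were the lowest values of all 12 libraries. The log2 difference was -1.33 (SE 0.23) between these 24-week groups and -1.16 (SE 0.23) between TRAMP control libraries at 24 and 16 weeks. Both rest on the libraries on which Ctgf was chosen and carry no test.

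Thbs1, thrombospondin 1 (ENSMUSG00000040152.8, chromosome 2, 118111876 to 118127133, plus strand), and Tnc, tenascin C (ENSMUSG00000028364.15, chromosome 4, 63959785 to 64047015, minus strand), were not lower in TRAMP at 24 weeks. Thbs1 had 6.46 and 5.42 FPKM in wild type and 6.88 and 7.46 in TRAMP control at 24 weeks (log2 difference 0.24, SE 0.25, no test). At 16 weeks it had 5.56 in wild type, and 6.19 and 2.99 in TRAMP (-0.29, SE 0.30, adjusted p = 0.48). Without TRAMP replicate 0, whose 6.19 was the higher, the 16-week difference was -0.72 (adjusted p = 0.028), and without replicate 1 it was 0.13. Adjusted p over the 11 alternatives ranged from 0.028 to 0.69. Tnc had 0.711 and 0.571 FPKM in wild type and 1.07 and 1.51 in TRAMP at 24 weeks (0.48, SE 0.26, adjusted p = 0.17), and 0.853 in wild type against 0.932 and 0.266 in TRAMP at 16 weeks (-0.24, SE 0.32, adjusted p = 0.58).

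The markers of other cell types moved with the comparison of TRAMP and wild type. The 10 smooth muscle markers, Acta2 and Myh11 among them, summed to 891 to 1065 FPKM in wild type and to 339 to 778 in TRAMP prostates. Of these 10 markers 8 fell at 24 weeks and 10 at 16 weeks. The 9 basal epithelial markers, Krt5 and Trp63 among them, summed to 148 to 176 FPKM in wild type and 57.6 to 89.9 in TRAMP, with 7 of 9 lower at each age and 1 higher at 24 weeks. Macrophage markers, 8 in all, summed to 67.5 to 101 FPKM in wild type and 117 to 388 in TRAMP, and the 10 fibroblast markers to 159 to 220 and 96.8 to 278. No marker of these 4 lists was at 0 in any library. Their part in the fall of Amotl2, Lats2, Cyr61 and Yap1 was not tested.

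**Figure D2:**
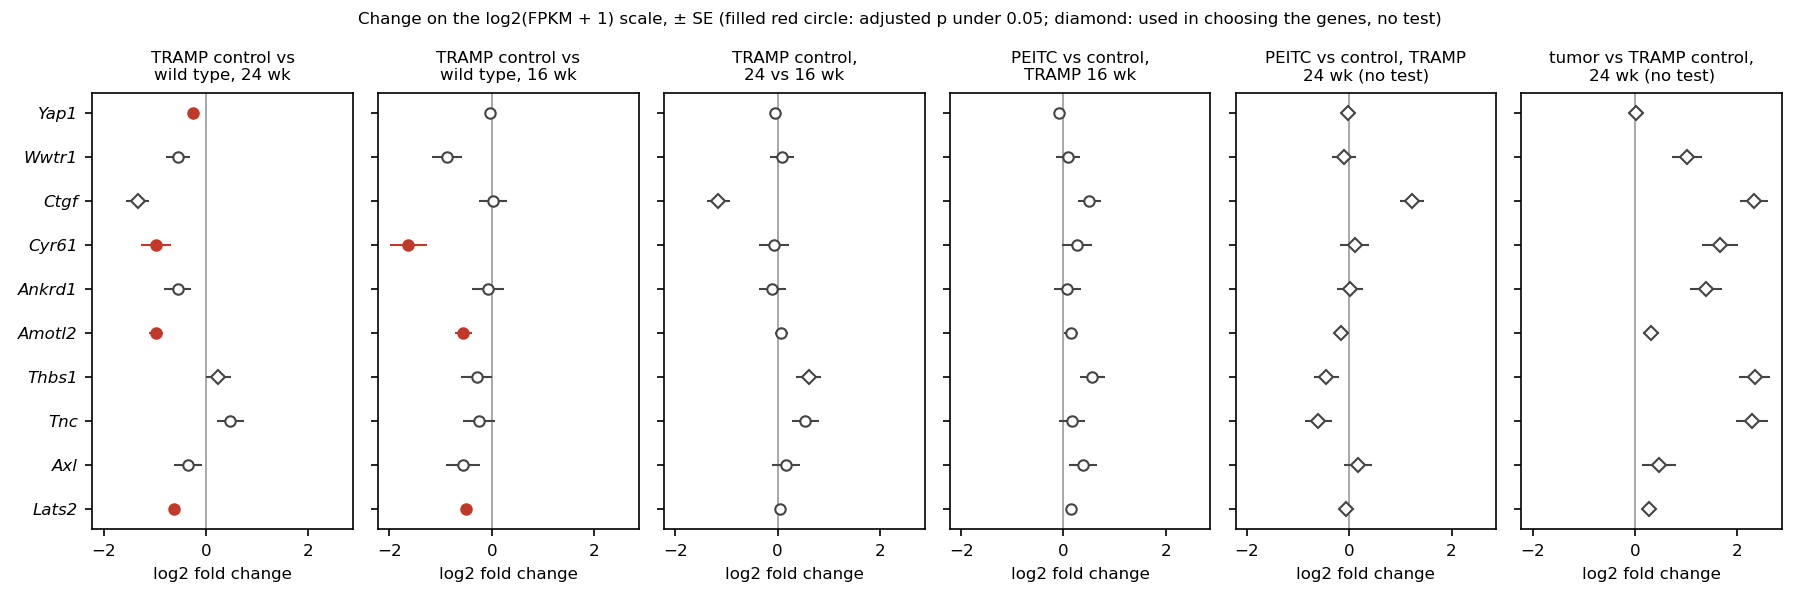
Change of each gene (rows) on the log2(FPKM + 1) scale in 6 comparisons (panels), with bars of ± SE; filled red circles passed the adjusted p threshold and diamonds are differences used in choosing the genes, shown without a test. Amotl2, Cyr61 and Lats2 lie left of 0 with filled circles at both ages in TRAMP against wild type, and Ctgf, Thbs1 and Tnc lie beyond 2 in the tumor.

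The other genes of the pathway give the setting of these changes. Of the 6 genes of the Hippo kinase core and its adaptors, 1 rose and none fell at 24 weeks: Sav1, the scaffold of the kinases, by 0.19 (SE 0.057, adjusted p = 0.029). At 16 weeks 1 rose, the kinase gene Stk4 (0.38, SE 0.088, adjusted p = 0.013). Of the 14 tested upstream regulators, 3 rose and 6 fell at 24 weeks, and 3 rose and 3 fell at 16 weeks. Of all genes, 23.0% rose and 22.0% fell at 24 weeks, and 18.1% rose and 15.4% fell at 16 weeks. Apart from the 6 that fell, the counts of upstream regulators are near these shares. Amotl1, a second angiomotin, fell at both ages, from 35.7 to 10.6 FPKM in group means at 24 weeks (-1.67, SE 0.22, adjusted p = 0.00067) and from 29.3 to 12.8 at 16 weeks (-1.19, SE 0.27, adjusted p = 0.012). The scaffold genes Ajuba (-0.80) and Wwc2 (-0.74) fell at 24 weeks, while Limd1, of the same family as Ajuba, rose by 0.75 at 24 weeks and 0.49 at 16 weeks.

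Of the 6 TEAD factors and Vgll cofactors, Tead2 rose at 24 weeks (0.62, SE 0.19, adjusted p = 0.028) and Vgll4, a competitor of YAP for TEAD, fell (-0.30, SE 0.061, adjusted p = 0.0055). At 16 weeks Tead2 fell instead (-0.71, SE 0.23, adjusted p = 0.047). Its wild type values were 0.745 and 0.648 FPKM at 24 weeks and 3.01 in the 16-week library that also held seminal vesicle RNA. Tead1, Tead3 and Tead4 did not pass at 24 weeks (-0.59, 0.34 and -0.06).

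Among 14 tested other YAP targets, 3 rose and 7 fell at 24 weeks and 0 rose and 5 fell at 16 weeks, with medians of -0.35 and -0.29. Over all genes tested the medians were -0.00 and 0.02. At 24 weeks 23.0% of all genes rose and 22.0% fell, and at 16 weeks 18.1% rose and 15.4% fell. The number of these targets that rose at 24 weeks is near the share of all genes. Fjx1 fell at both ages (-1.09, SE 0.12, adjusted p = 0.00026 at 24 weeks, and -1.31, SE 0.14, adjusted p = 0.00057 at 16 weeks). Crim1, a membrane protein that binds growth factors, fell from 7.46 to 3.05 FPKM at 24 weeks (-1.06) and from 6.45 to 2.86 at 16 weeks (-0.95). Rbms3 (-1.14) and Arhgef17 (-0.89) were the other large falls at 16 weeks. In the other direction Myof, myoferlin, rose by 1.33 (SE 0.17, adjusted p = 0.00064), and F3, tissue factor, by 1.19 (SE 0.31, adjusted p = 0.017) at 24 weeks.

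Of 13 tested other CCN and matricellular genes, only Tgfbi, a secreted protein induced by TGF-beta, passed at 24 weeks. It rose from 2.60 to 10.02 FPKM (1.58, SE 0.34, adjusted p = 0.0066). At 16 weeks only Smoc2, a SPARC family protein, passed, with a fall of 1.04 (SE 0.27, adjusted p = 0.022). Of 8 tested receptors for these proteins, the beta-1 integrin subunit gene Itgb1 (0.48) and the thrombospondin receptor gene Cd47 (0.42) rose at 24 weeks, and the integrin genes Itga8 (-0.98) and Itgb5 (-0.30) fell. At 16 weeks Cd47 rose (0.28) and Itga8 fell (-0.52). The receptor counts are near the shares of all genes tested. These were 23.0% higher and 22.0% lower at 24 weeks, and 18.1% higher and 15.4% lower at 16 weeks. The same shares apply to the other lists here. Of the 4 relatives and ligands of Axl, only Mertk passed, and it fell at both ages (-0.93, SE 0.071, adjusted p = 5.7e-05, and -0.47, SE 0.087, adjusted p = 0.0050). Among 7 genes of TGF-beta signalling, which also drives Ctgf and Thbs1, Tgfbr2 rose (0.33) and Tgfb3 fell (-0.87) at 24 weeks, and Tgfbr2 rose (0.38) at 16 weeks.

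**Figure D3:**
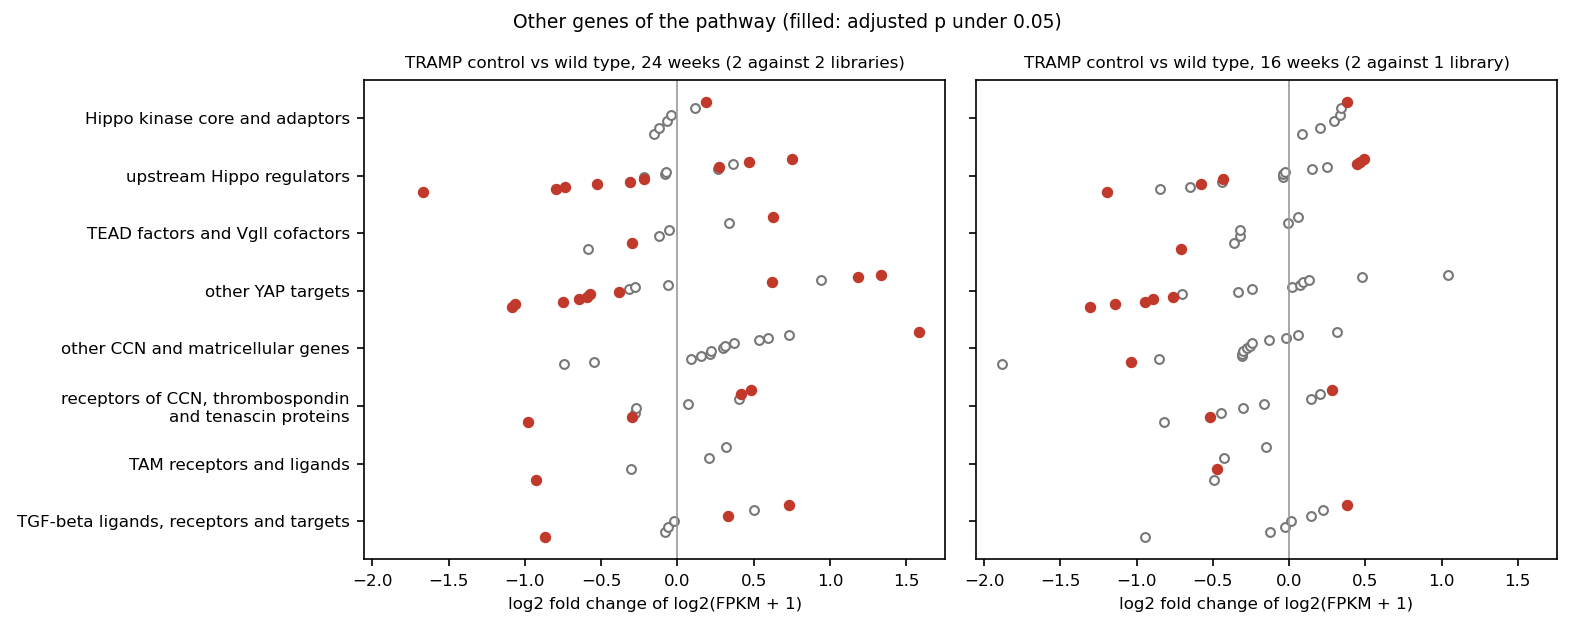
Change in TRAMP control against wild type prostate for each gene of the 8 pathway lists (rows), on the log2(FPKM + 1) scale, at 24 weeks (left) and 16 weeks (right); filled points passed the adjusted p threshold. Filled points lie on both sides of 0 among the upstream regulators at both ages, and the 5 filled other YAP targets at 16 weeks all lie left of 0.

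Whether the difference between TRAMP and wild type changed from 16 to 24 weeks was asked with an interaction term. None of the 8 members open to a test passed, where 0.366% of all genes did (0.329% higher and 0.0374% lower), and 1 of the 8, Yap1, had an unadjusted p under 0.05, as did 2108 of all 13375 genes. Its difference of log2 fold changes was -0.23 (SE 0.098, adjusted p = 0.31). For Ctgf the difference was -1.35 (SE 0.36) and for Thbs1 0.53 (SE 0.39), both without a test. Between TRAMP control prostates at 24 and 16 weeks, 0 of the 8 passed, where 0.00748% of all genes did. At an unadjusted p under 0.05 the counts were 0 of the 8 and 2261 of all 13375 genes. The largest change among the 8 was that of Tnc (0.54, SE 0.26, adjusted p = 0.32), and the interval of Amotl2 ran from -0.24 to 0.38.

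The PEITC comparison asks whether the diet changed these genes in TRAMP prostate. At 24 weeks, where Ctgf was chosen, TRAMP mice on PEITC had Ctgf at 17.8 and 18.2 FPKM and those on control diet at 5.88 and 8.50. The groups do not overlap, and the log2 difference was 1.23 (SE 0.23). The PEITC values lie beside those of wild type, 18.2 and 20.6, and beside the control libraries at 16 weeks, 22.0 and 13.2. Cyr61, whose protein shares integrin receptors with CTGF, had 9.54 and 11.4 FPKM with PEITC and 10.1 and 9.19 without (0.10, SE 0.29). The ratio of Ctgf to Cyr61 was accordingly 1.86 and 1.60 with PEITC and 0.584 and 0.925 without.

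The other members at 24 weeks are given with the same reserve. Thbs1 had 5.24 and 4.75 FPKM with PEITC, below 6.88 and 7.46 on control diet (-0.45, SE 0.25). Tnc had 0.440 and 0.566, below 1.07 and 1.51 (-0.60, SE 0.26). Amotl2 was at 11.5 and 11.2 with PEITC and 12.4 and 13.1 without (-0.16, SE 0.13). Lats2, Yap1, Ankrd1, Wwtr1 and Axl had differences from -0.10 to 0.17. Of all genes tested, 0.00% passed in this comparison, and 1267 of 13375 had an unadjusted p under 0.05. Fibroblast markers summed to 148 and 198 FPKM with PEITC and to 96.8 and 277 on control diet, and macrophage markers to 196 and 237 against 169 and 388, so the control pair was the more unequal.

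At 16 weeks the comparison of PEITC with control diet uses none of the libraries named in the choice of genes, and all 10 members were tested. None passed, where 0.00748% of all genes did. At an unadjusted p under 0.05 the counts were 0 of the 10 and 1347 of all 13375 genes. Ctgf had 22.9 and 26.6 FPKM with PEITC and 22.0 and 13.2 on control diet. Both PEITC values were above both control values, by a little in 1 case, and the log2 fold change was 0.51 (SE 0.23, 95% interval -0.02 to 1.03, adjusted p = 0.50). Thbs1, lower with PEITC at 24 weeks, had 6.15 and 7.80 against 6.19 and 2.99 FPKM here (0.57, SE 0.25, 95% interval -0.00 to 1.14, adjusted p = 0.49). Tnc had 0.397 and 1.20 against 0.932 and 0.266 (0.17, SE 0.26, adjusted p = 0.86). Cyr61 had 10.8 and 14.4 against 13.6 and 7.60 (0.26, SE 0.29, adjusted p = 0.78), Axl 6.48 and 10.4 against 7.16 and 5.09 (0.39, SE 0.27, adjusted p = 0.65), and Amotl2 11.7 and 15.5 against 12.3 and 11.9 (0.14, SE 0.13, adjusted p = 0.74). Replicate 1 on PEITC was the higher of its pair for Ctgf, Cyr61, Amotl2, Thbs1, Tnc, Axl, Wwtr1 and Lats2, and its smooth muscle markers summed to 778 FPKM against 403 in replicate 0 and 346 and 422 on control diet. None of the 8 pathway lists had a member that passed in this comparison.

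**Figure D4:**
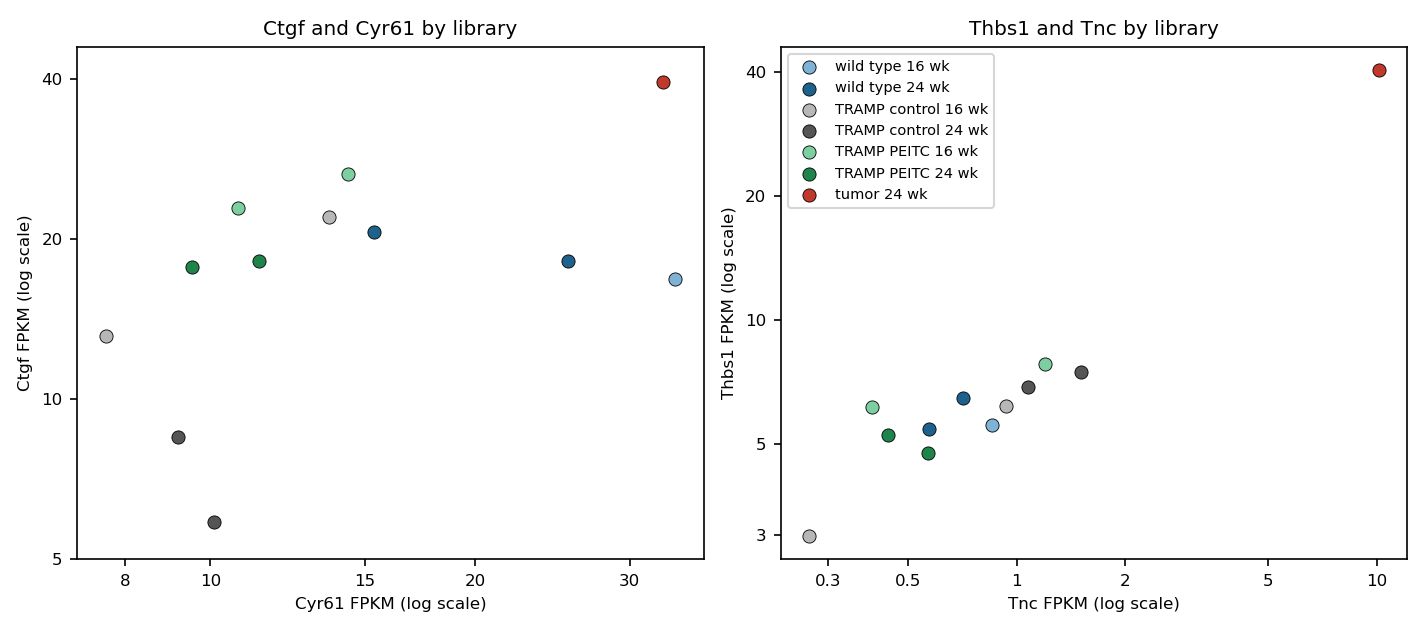
Ctgf against Cyr61 (left) and Thbs1 against Tnc (right) in FPKM on log axes, each point 1 library coloured by group. The 24-week TRAMP control libraries have the lowest Ctgf at a Cyr61 like that of other TRAMP prostates, and the tumor is at the upper right of both panels.

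The tumor library was compared with the 24-week TRAMP control prostates as a description, since Ctgf and Thbs1 were chosen here and the tumor is 1 library. Thbs1 stood at 40.3 FPKM in the tumor and at 2.99 to 7.80 in the 11 prostates, Tnc at 10.1 against 0.266 to 1.51, and Ctgf at 39.5 against 5.88 to 26.6. The log2 differences from the 24-week TRAMP control were 2.34 (SE 0.30), 2.28 (SE 0.32) and 2.33 (SE 0.28). Ankrd1 was at 3.27 FPKM, above its range of 0.317 to 1.79 in prostates (1.38, SE 0.31), and Wwtr1 at 4.61, above 1.21 to 3.85 (1.01, SE 0.29). Cyr61, at 32.7, exceeded every TRAMP prostate but not the 16-week wild type library (1.66, SE 0.36).

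The regulators and Axl differed less. Yap1 was at 65.0 FPKM in the tumor (0.01, SE 0.076), Amotl2 at 16.1 (0.31, SE 0.16), Lats2 at 5.18 (0.28, SE 0.11) and Axl at 9.85 (0.47, SE 0.34), all within the range of the 11 prostates. Amotl2 and Lats2 in the tumor were above the highest TRAMP prostate (15.5 and 4.70 FPKM) and below all wild type libraries. In all, 5 of the 10 members were above each of the 11 prostates, where 20.3% of all genes tested were, and 0 were below, where 23.4% were. Ctgf and Thbs1, chosen because they were high in the tumor, are among these 5, so nothing is read from this count. In the fit across all genes 5 members passed as higher, where 5.59% of all genes did (6.17% passed as lower and 11.8% in all), and nothing is read from this count because the members were chosen on it.

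In most lists of other pathway genes, more stood above all prostates in the tumor than below them. Tgfbi stood at 22.6 FPKM against 2.46 to 12.3 in the prostates, Spp1, osteopontin, at 34.4 against 0.489 to 12.9, and Tead2 at 8.09 against 0.648 to 3.01. These 3 were chosen after their values were seen. Of all genes tested, 20.3% were above all prostates and 23.4% below. Above were 5 of 14 other YAP targets, 4 of 13 other CCN and matricellular genes, 4 of 8 receptors, 4 of 7 TGF-beta genes and 3 of 6 TEAD factors and cofactors, with 1, 1, 1, 0 and 1 below. Of 14 upstream regulators 4 were above and 3 below, of 6 Hippo core genes 1 and 2, and of the 4 relatives and ligands of Axl 1 and 1. Endothelial markers, 9 in all, summed to 40.4 FPKM in the tumor against 9.20 to 25.9 in the prostates, and 13 immediate early genes to 526 against 182 to 326. Smooth muscle markers were at 327, below all prostates, fibroblast markers at 206, within their range, and the platelet markers at 8.59, also within. The part of these in the level of Thbs1, Tnc and Ctgf was not tested.

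The genes whose pattern over the 12 libraries was most like that of Ctgf and Thbs1 were taken by Pearson correlation of log2(FPKM + 1) across all genes tested, as a description. For Ctgf they were Crem (0.89), Ilk (0.83), Atp5g2 (0.82), Nhp2l1 (0.79) and Trim7 (0.78). The first of these, Crem, a transcription factor that answers to cyclic AMP, ranged only from 2.15 to 3.33 FPKM. For Thbs1 they were Tnc (0.97), Krt17 (0.96), Nes (0.96), Pxdc1 (0.96) and Rab31 (0.96). These rest largely on the tumor, since over the other 11 libraries the values were 0.80 for Tnc and 0.77, 0.73, 0.66 and 0.67 for the rest in that order. Krt17, a keratin of basal and wounded epithelium, was at 52.8 FPKM in the tumor and at 1.46 to 6.48 in the prostates. The 9 basal markers, Krt17 among them, summed to 132 FPKM in the tumor, 57.6 to 89.9 in TRAMP prostates and 148 to 176 in wild type. In the tumor Krt5 was at 4.76 (4.67 to 42.5 in the prostates) and Lamb3 at 10.9 (1.44 to 8.23). Among the members themselves Wwtr1 and Cyr61 had a correlation of 0.92 (0.89 without the tumor), while Ctgf and Cyr61 had 0.52 (0.34). Wwtr1 and Cyr61 were both higher in each wild type library than in any TRAMP prostate, so their correlation in part describes that group difference.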

How the data were processed

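The deposited values are FPKM per gene, 1 table per library, as the authors made them. The submitters' processing notes name HISAT2, Picard, featureCounts and DESeq2 and the mm10 genome; their versions, their roles and the annotation are not given in these sources. Without counts the depth in reads is unknown. Values were converted to log2(FPKM + 1), a scale that understates the change of genes with low values, and genes averaging 0.5 FPKM or more (13375) were tested in R 4.3.3, package limma 3.58.1: a mean for each of the 7 groups, a variance trend, 5 residual degrees of freedom with two-sided p-values and Benjamini-Hochberg adjustment over all tested genes, with a threshold of 0.05. The fit was tested on simulated data. Members, gene lists and comparisons were chosen with earlier results of these data known. All members were reported, and up to 4 genes per list and comparison, those with the largest change among genes that passed. A gene that this rule took is not reported here. Symbols Ctgf and Cyr61 are Ccn2 and Ccn1 in GENCODE M21. The labels name no batch. Figures used Python 3.11.15 and matplotlib 3.10.9.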

Additional observations from a re-analysis of the deposited data

How the results depend on the processing

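Of the 12 libraries, 10 are in pairs and 2 stand alone, so a group's spread rests on 2 values at most. Leaving the 50 most abundant genes out of the scaling moved the median log2 fold change of all genes, TRAMP against wild type, from -0.00 to 0.09 at 24 weeks and from 0.02 to 0.12 at 16 weeks, and the share of passing genes that were higher from 51.1% to 66.6% and from 54.1% to 70.3%. Amotl2 and Lats2 passed as lower at 24 weeks under each of their 12 alternatives.

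In TRAMP against wild type at 16 weeks a fit of the compared groups alone left 1 member and 2198 genes, against 3 and 4490. At 24 weeks 3 to 5 members, Ctgf counted, passed with a replicate left out. Counts of all genes elsewhere were small and moved. For PEITC at 16 weeks, 1 in the fit reported, they were 2 with a pseudocount of 0.1, 6 with no filter, 0 within the compared groups and 0 with any replicate left out. For TRAMP at 24 against 16 weeks, also 1, they were 4 with no filter, 0 within the compared groups and 1 to 260 with a replicate left out (260 without TRAMP control replicate 2 of 24 weeks), where 0 to 1 member passed (Ctgf, without the same library). For the interaction, 49, they were 27 with a pseudocount of 0.1, 297 with no filter, 27 with a mean of at least 2 FPKM and 33 to 82 with a replicate left out (82 without that library). For PEITC at 24 weeks, 0, they were 9 with no filter, 1 within the compared groups and 0 to 160 with a replicate left out (160 without that library). For the tumor no count of members is read, since Ctgf and Thbs1 were chosen there. Within the compared groups no spread of the tumor can be had.

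Same-numbered libraries did not deviate together (correlations of deviations from -0.31 to 0.28), and the labels do not say that a number pairs them. Number 2 belongs to a single library, of the 24-week TRAMP control group, so the block fitted that library exactly. In each comparison with this group, the group then rested on replicate 0. With the replicate number as a block, 3 members and 3984 genes passed in TRAMP against wild type at 24 weeks (6014 without the block), 0 genes for PEITC at 16 weeks, 98 for TRAMP at 24 against 16 weeks and 58 for PEITC at 24 weeks. With the block, the calls of Yap1 and Cyr61 at 24 weeks and of Amotl2 at 16 weeks did not pass. Those at 24 weeks had TRAMP control replicate 0 alone in its group. The sign of some small differences turned under the block: Ankrd1 to 0.10 in TRAMP against wild type at 16 weeks, Yap1 to 0.037, Wwtr1 to -0.076 and Axl to -0.16 in TRAMP at 24 against 16 weeks, and Axl to -0.070 in the interaction. All but that of Ankrd1 use the 24-week TRAMP control group, there resting on replicate 0 alone. The cause was not tested.

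Other signs that turned belonged to differences that did not pass in the fit reported, and their cause was not tested. In TRAMP against wild type at 16 weeks quantile normalization gave 0.031 for Yap1 and -0.051 for Ctgf, scaling without the 50 most abundant genes gave 0.089 for Yap1, and the 24-week wild type libraries as control gave -0.18 for Ctgf. With a replicate left out, log2 fold changes there ran from -0.063 to 0.0026 for Yap1, -0.33 to 0.37 for Ctgf, -0.48 to 0.35 for Ankrd1, -0.72 to 0.13 for Thbs1 and -0.55 to 0.060 for Tnc. At 24 weeks they ran from -0.69 to 0.00021 for Axl. For PEITC at 16 weeks they ran from -0.25 to 0.44 for Wwtr1, -0.12 to 0.64 for Cyr61, -0.34 to 0.49 for Ankrd1, -0.048 to 0.33 for Amotl2 and -0.16 to 0.49 for Tnc. For TRAMP at 24 against 16 weeks they ran from -0.13 to 0.035 for Yap1, -0.093 to 0.27 for Wwtr1, -0.46 to 0.30 for Cyr61, -0.51 to 0.31 for Ankrd1 and -0.19 to 0.50 for Axl, and in the interaction from -0.13 to 0.56 for Axl.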

Other observations

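A CCN gene and a thrombospondin gene outside the 10 were high in a single library. Nov, a CCN protein, stood at 20.99 FPKM in TRAMP PEITC replicate 1 at 24 weeks and at 0.625 to 2.52 in the other 11 libraries, with 1.45 in the other library of its group. Thbs4, a thrombospondin of tendon and muscle, was at 4.73 FPKM in the same library and at most at 0.303 elsewhere. Both were picked out after their values were seen, and no cause was tested.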
